A study of Mus musculus with 9 samples.

Results

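The genes described are 42 lysosomal genes of the mouse, chosen by name: 10 proteases, 8 glycosidases, 8 lipid hydrolases with their partner proteins, 6 membrane proteins, 8 subunits of the proton pump and 2 transcription factors. They are 42 of the 51826 rows of a table of raw read counts per gene, and all 42 passed the filter on low counts that left 15429 genes for testing. RNA was measured by mRNA sequencing in bone marrow-derived macrophages (BMMs), which are grown in culture from precursors in mouse marrow. The control group was BMMs described as untreated, the CM group was BMMs given medium conditioned by K7M2 cells for 48 h, and the CM plus DTM group was BMMs given the same conditioned medium and DTM together for 48 h, with 3 libraries each. K7M2 cells are a mouse line from an osteosarcoma, a bone tumour, and medium they have conditioned holds what they secrete. What DTM abbreviates is not stated in the labels. Neither the time in culture nor the medium is stated for control, so an effect of time or of medium on a difference from control cannot be told apart from one of CM. No mouse strain is given, and it is not stated whether libraries of the same group derive from different cultures or mice. The p-values therefore cover the variation among these libraries alone, and that may be technical.

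The lysosome is the acidic compartment in which a macrophage breaks down what it takes up and what it recycles of its own. Soluble hydrolases cut proteins, sugar chains and lipids there, a V-type ATPase pumps in the protons that keep the lumen acidic, and heavily glycosylated membrane proteins line the limiting membrane. The transcription factors TFEB and MITF, of the MiT/TFE family, bind a short E-box element found near the start of many lysosomal genes and can raise their transcription together.

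The libraries held 43084296 to 50407973 counts each. Values are CPM, that is counts per 1000000 counts of a library after TMM scaling, unless a share of all counts is named. Within groups the correlation of log2 CPM between libraries was 0.973 to 0.986 in control, and 0.985 and 0.979 between libraries 2 and 3 of CM and of CM plus DTM. CM 1 correlated with the other CM libraries at 0.939 and 0.940, and CM plus DTM 1 with its own group at 0.919 and 0.936, so these 2 libraries stood apart, and the main results are also given without both. All 11 macrophage markers used averaged at least 1 CPM in every group, and their summed level was 25858 to 46109 CPM in control, 33797 to 36029 CPM in CM and 31158 to 46014 CPM in CM plus DTM. Lyz2 made up most of that sum, at 20480 to 38712 CPM in control and 28467 to 30436 CPM in CM. Csf1r, the macrophage growth factor receptor, measured 1992 to 2725 CPM in control and 1294 to 1502 CPM in CM (edgeR adjusted p = 0.0586), Adgre1 782 to 1298 CPM and 453 to 658 CPM (0.145), and Aif1 32.8 to 59.2 CPM and 5.67 to 14.1 CPM (0.0896), with every CM library below every control library. Fcgr1 and Mertk rose in CM (log2 fold changes 1.84 and 0.78, adjusted p = 0.0485 for both), and the part of these markers in the lysosomal results was not tested. The 12 neutrophil markers summed to 231 to 781 CPM in control, 35.6 to 321 CPM in CM and 369 to 1172 CPM in CM plus DTM, with the lowest sum in CM 1 and the highest in CM plus DTM 1. The 10 stromal or osteosarcoma markers summed to 518 to 834 CPM, 132 to 569 CPM and 564 to 691 CPM in the same order, again lowest in CM 1. Col1a1 and Col1a2 made up most of that sum, and Lum was at 0 in control. Col1a1 measured 224 to 441 CPM in control, 63.1, 216 and 236 CPM in CM and 235 to 300 CPM in CM plus DTM. Col1a2 measured 216 to 306 CPM, 48.2, 217 and 221 CPM, and 236 to 298 CPM. The 8 dendritic cell markers summed to at most 4.27 CPM and the 6 lymphocyte markers to at most 0.541 CPM, with Cd3e and Cd3g at 0 in all 9 libraries. The 6 erythroid and mast cell markers summed to 1.44 to 2.22 CPM in control, 2.15 to 31.1 CPM in CM and 5.13 to 8.60 CPM in CM plus DTM, with Fcer1a at 0. The share of counts from mitochondrial genes was 0.740 to 1.77%. It was highest in CM 1 and CM plus DTM 1, at 1.77% in both, and at most 1.39% in the other libraries. The 20 most abundant genes took 14.7 to 17.6% of counts in control, 22.8 to 24.6% in CM and 19.0 to 23.0% in CM plus DTM. In CM these 20 included the lysosomal genes Psap, Ctsb and Ctsd, so that share is not independent of the lysosomal results. Beyond that overlap, the part of these shares in the lysosomal results was not tested.

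The 42 genes took a larger share of the macrophages' mRNA counts after CM. Their summed share of all counts was 6.36, 5.88 and 5.89% in control, 8.25, 9.42 and 9.60% in CM, and 6.66, 7.995 and 7.33% in CM plus DTM. The groups did not overlap in either comparison with control, and CM plus DTM lay below CM in every library. Most of the difference between CM and control lay in Psap, Ctsb and Ctsd, the 3 most abundant of the set, which together took 3.80, 3.39 and 3.31% of counts in control, 5.32, 5.94 and 6.08% in CM, and 3.57, 5.02 and 4.41% in CM plus DTM. The other 39 took 2.56, 2.49 and 2.58% in control, 2.94, 3.48 and 3.52% in CM, and 3.08, 2.98 and 2.92% in CM plus DTM. Summed shares are a description with no test, and in bulk RNA a larger share of cells that express these genes and more of their RNA per cell cannot be told apart.

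**Figure D1:**
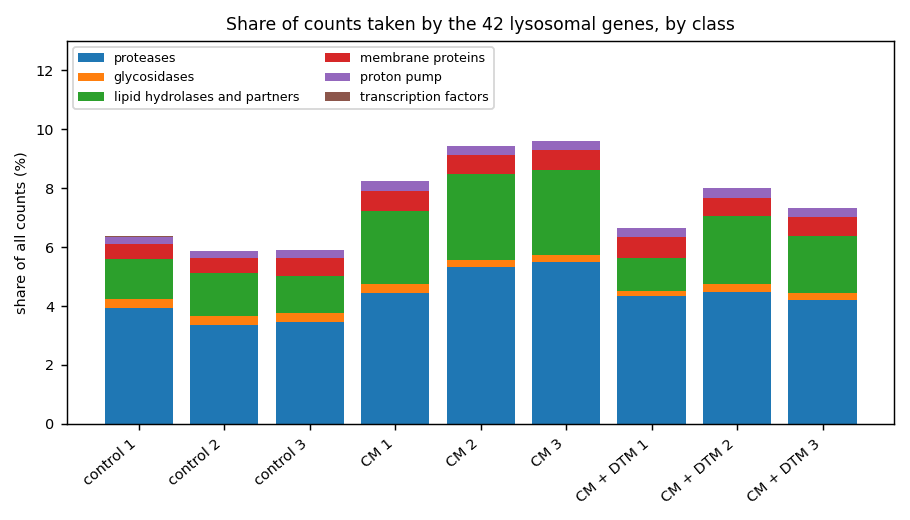
Share of all counts (percent, y axis) taken by the 42 lysosomal genes in each of the 9 libraries (x axis), stacked by class. The bars reach 5.88 to 6.36% in control, 8.25 to 9.60% in CM and 6.66 to 7.995% in CM plus DTM; proteases and the lipid class, which holds Psap, make up most of each bar.

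The letters of the E-box that TFEB and MITF bind were looked for near the genes' starts; a match is a description and not a site of binding. RefSeq promoter windows (assembly GRCm38.p6, 250 bases before to 50 after the start) matched 35 of the 42 genes, and the others were Atp6v1b2, Atp6v1h, Ctsh, Npc1, Asah1, Atp6v1c1 and Ctsb. The letters CACGTG, the same on both strands, were in the window of 13 of 35 members (37.1%), against 1675 of 19143 genes with a window (8.75%) and 1092 of the 9131 among them that averaged 1 CPM or more (12.0%), a gene counting once if any of its windows held them. The longer form GTCACGTG, which contains CACGTG and was searched on both strands, was in 9 of 35 members (25.7%), against 3.09% of all genes with a window and 4.93% of those at 1 CPM or more. Extended by AC at its 3′ end it was in 0 members and in 0.481% of all genes with a window. Printed 5′ to 3′ on the gene's strand, with CACGTG in capitals, are the windows of Gla, Ctsl, Ctsz, Psap and Atp6v0d1, which passed a test, and of Lamp1 as the most abundant membrane protein. Psap has 2 windows, of which the first is shown, and Mitf has 3, not shown, none with CACGTG. Gla lies at chrX:134600956-134601255 on the minus strand, Ctsl at chr13:64370471-64370770 on the minus strand, Ctsz at chr2:174438990-174439289 on the minus strand, Psap at chr10:60277378-60277677 on the plus strand, Lamp1 at chr8:13158911-13159210 on the plus strand and Atp6v0d1 at chr8:105566015-105566314 on the minus strand.
Gla: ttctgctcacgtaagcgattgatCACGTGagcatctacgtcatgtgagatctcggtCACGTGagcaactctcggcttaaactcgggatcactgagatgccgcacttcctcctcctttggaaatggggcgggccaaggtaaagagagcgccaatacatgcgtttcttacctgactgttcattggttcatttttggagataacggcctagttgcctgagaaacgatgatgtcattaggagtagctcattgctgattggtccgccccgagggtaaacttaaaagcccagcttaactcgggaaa
Ctsl: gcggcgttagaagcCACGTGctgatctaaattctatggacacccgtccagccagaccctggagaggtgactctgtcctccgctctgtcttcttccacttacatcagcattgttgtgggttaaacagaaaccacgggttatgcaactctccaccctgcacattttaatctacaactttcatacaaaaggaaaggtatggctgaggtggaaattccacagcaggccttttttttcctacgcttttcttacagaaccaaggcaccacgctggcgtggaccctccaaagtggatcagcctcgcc
Ctsz: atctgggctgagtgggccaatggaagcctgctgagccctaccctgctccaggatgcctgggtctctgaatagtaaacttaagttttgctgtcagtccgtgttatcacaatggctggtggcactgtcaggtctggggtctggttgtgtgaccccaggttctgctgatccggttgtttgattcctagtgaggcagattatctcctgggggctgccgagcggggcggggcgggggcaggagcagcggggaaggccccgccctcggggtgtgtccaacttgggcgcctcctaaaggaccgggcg
Psap: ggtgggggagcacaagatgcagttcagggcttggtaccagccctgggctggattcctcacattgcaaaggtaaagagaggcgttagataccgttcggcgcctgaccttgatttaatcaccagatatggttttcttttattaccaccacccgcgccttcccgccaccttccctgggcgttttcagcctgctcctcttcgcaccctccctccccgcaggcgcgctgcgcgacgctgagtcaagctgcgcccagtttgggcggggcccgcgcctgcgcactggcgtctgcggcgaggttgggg
Lamp1: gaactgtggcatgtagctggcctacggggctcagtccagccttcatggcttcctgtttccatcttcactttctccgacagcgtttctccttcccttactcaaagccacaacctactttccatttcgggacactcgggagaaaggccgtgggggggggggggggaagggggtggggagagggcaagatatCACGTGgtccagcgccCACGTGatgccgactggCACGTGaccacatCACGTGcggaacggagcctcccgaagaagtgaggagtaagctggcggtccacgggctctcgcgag
Atp6v0d1: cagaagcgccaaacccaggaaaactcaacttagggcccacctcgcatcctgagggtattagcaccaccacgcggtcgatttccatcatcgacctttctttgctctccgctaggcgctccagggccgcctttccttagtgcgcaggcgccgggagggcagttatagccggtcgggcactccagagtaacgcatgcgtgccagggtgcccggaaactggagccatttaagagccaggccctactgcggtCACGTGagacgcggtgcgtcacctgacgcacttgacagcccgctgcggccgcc
Gla holds CACGTG 227 and 194 bases before its start, Ctsl once at 236 bases before, Lamp1 at 61, 45, 28 and 15 bases before, and Atp6v0d1 at 3 bases before. The windows shown for Ctsz and Psap do not hold these letters, which says nothing of the factors' action on either gene. The other holders were Ctsa, Ctsd, Lgmn, Gaa, Glb1, Naglu, Mcoln1, Atp6v0e and Atp6v1a.

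CM against control asks how the macrophages' lysosomal transcripts differ after medium from osteosarcoma cells. Of the 42 lysosomal genes 6 rose and 0 fell: the proteases Ctsz and Ctsl, the glycosidase Gla, the saposin precursor Psap, the proton pump subunit Atp6v1b2 and the transcription factor Mitf. Their CM means were 1.64- to 3.02-fold those of control. Among all 15429 genes tested 4.04% were higher and 1.57% lower by the same rule (edgeR's quasi-likelihood test, Benjamini-Hochberg adjusted p under 0.05), which is 623 and 242 genes, or 415 and 464 when libraries are scaled by total counts. The median log2 fold change of the members was 0.42 against -0.01 for all genes, from -0.56 for Lipa to 1.59 for Psap, and 37 of 42 estimates lay above 0. The 3 CM libraries were all above the 3 control libraries for 26 of 42 members (61.9%) and all below for 2, Man2b1 and Gusb (4.76%), where 18.3% and 18.4% of all genes did so. Without CM 1 and CM plus DTM 1, 20 members were higher, the same 6 among them, with 9.62% of all genes higher in that fit; DESeq2 called 15 members higher, with 8.23% of all genes higher and 4.39% lower. The number of calls moved with single libraries, from 1 without control 2 to 16 without CM plus DTM 1, and was 2 without control 1, control 3, CM 2 or CM 3, 3 without CM plus DTM 3 and 8 without CM 1. Scaling by total counts shifted the median of all genes to -0.21 and that of the members to 0.23, and left 3 calls (Ctsz, Psap and Mitf).

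**Figure D2:**
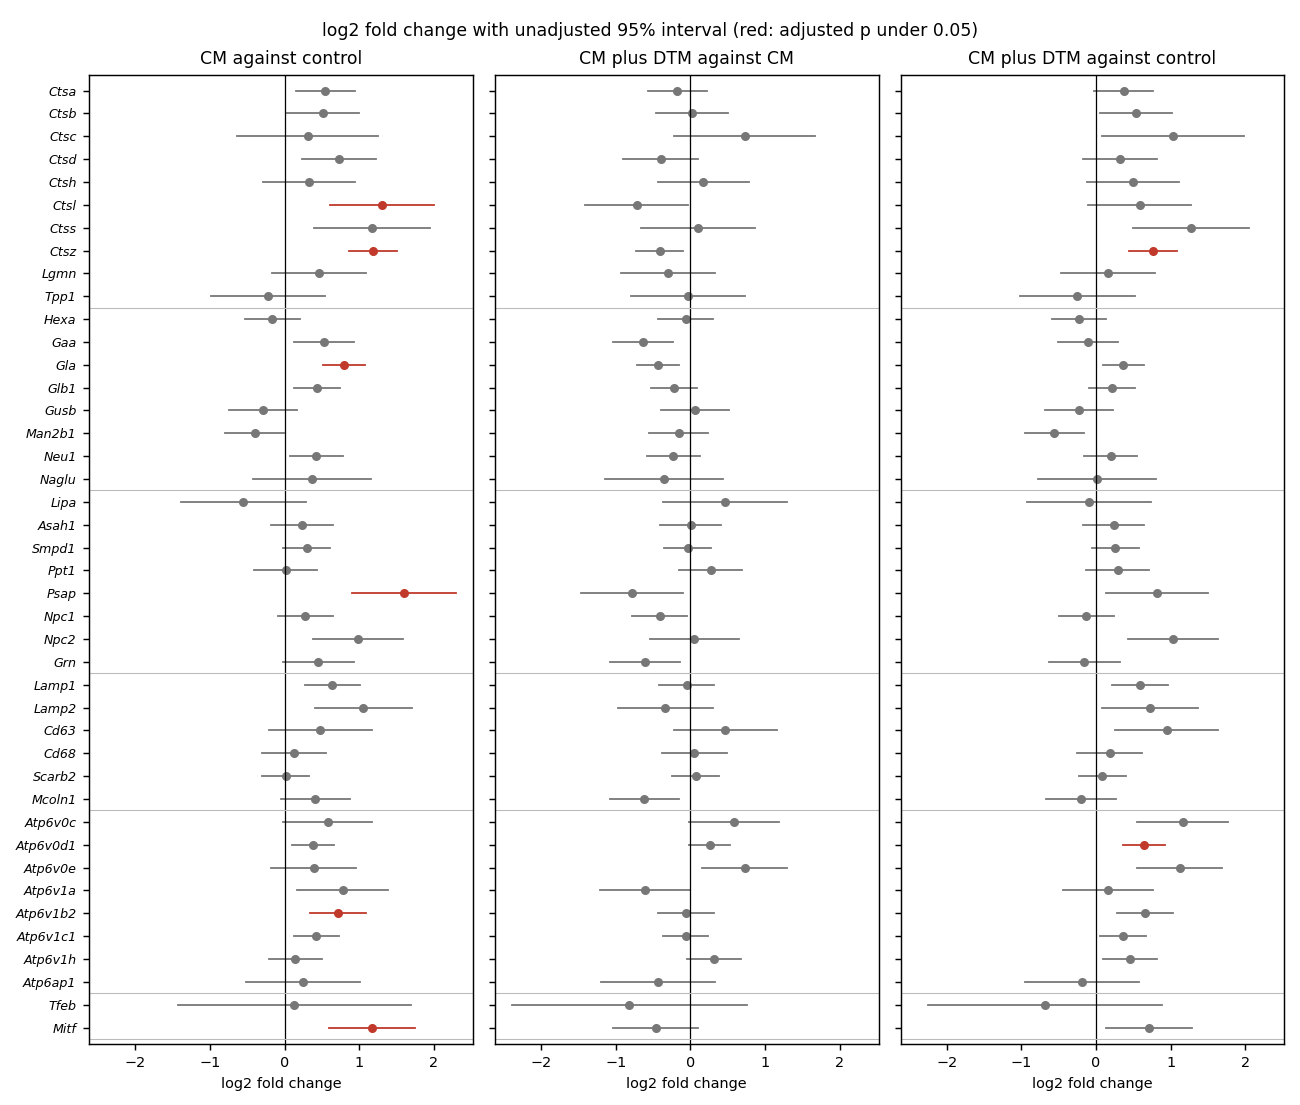
Log2 fold change of each of the 42 genes (y axis, grouped by class) in the 3 comparisons (panels), with unadjusted 95% intervals from edgeR; red marks an adjusted p under 0.05. In CM against control 37 of 42 points lie to the right of 0 and 6 are red; between CM plus DTM and CM none is red and 26 of 42 points lie to the left.

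CM plus DTM against CM asks what differs when DTM is added to the conditioned medium. None of the 42 genes passed the test in either direction, and neither did any of the 15429 genes, so that 0% were called higher and 0% lower and the lowest adjusted p of any gene was 0.0611 (edgeR). In simulated counts the same test called 7% of genes changed by a log2 fold change of 1 in this comparison. At a log2 fold change of 2 it called 50%. The changed genes were drawn at random from all genes that passed the filter, so the share for the 42 was not measured. A missing call therefore does not show that a gene was unchanged. An unadjusted p under 0.05 was found for 10 of the 42 and for 28.3% of all genes. The lowest adjusted p-values among the 42 belonged to Gaa, at -0.63 (SE 0.18, adjusted p = 0.0713), Gla, at -0.43 (SE 0.12, adjusted p = 0.0724), Mcoln1, at -0.62 (SE 0.21, adjusted p = 0.0990), and Ctsz, at -0.41 (SE 0.14, adjusted p = 0.103). Every CM plus DTM library was below every CM library for 10 members (23.8%), namely Ctsd, Ctsz, Gaa, Gla, Glb1, Neu1, Psap, Npc1, Grn and Mcoln1, and above for 3 (7.14%), the proton pump subunits Atp6v0c, Atp6v0d1 and Atp6v0e; among all genes the shares were 17.8% and 16.7%. The median log2 fold change was -0.06 for the 42 and -0.03 for all genes. DESeq2 called 5 members lower (Ctsz, Gaa, Gla, Grn and Mcoln1), with 9.09% of all genes lower, and limma-voom called 0 of the 42. Without CM 1 and CM plus DTM 1 the lower calls were Ctsl, Ctss and Psap, with 3.17% of all genes, and without CM plus DTM 2 Grn was lower (-0.86, adjusted p = 0.0274) and Atp6v0e higher (0.94, adjusted p = 0.0389). The CM libraries enter this comparison and CM against control, so the values of the 2 comparisons are not independent.

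CM plus DTM against control called 2 of the 42 genes higher and 0 lower. The cathepsin gene Ctsz was 1.70-fold and the pump subunit gene Atp6v0d1 1.56-fold its control level. By the same rule 1.5% of all genes were higher and 0.946% lower, or 232 and 146 genes; with total count scaling these were 176 and 273. The median log2 fold change was 0.31 for the 42 and 0.01 for all genes, and with total count scaling 0.06 and -0.24. All CM plus DTM libraries were above all control libraries for 19 members (45.2%) and below for 2, Hexa and Man2b1 (4.76%), where 16.7% and 17.8% of all genes did so. Without CM 1 and CM plus DTM 1, 12 members were higher, with 4.07% of all genes, and DESeq2 called 11 higher, with 8.02% of all genes, and 1 lower, Man2b1, with 5.69%. By single libraries the count ran from 0, without control 1, control 2, control 3, CM 2, CM 3 or CM plus DTM 3, to 7 without CM plus DTM 2, and was 6 without CM 1 and 4 without CM plus DTM 1.

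Among the proteases Ctsz and Ctsl rose in CM. Ctsz encodes cathepsin Z, a carboxypeptidase, and Ctsl encodes cathepsin L, an endopeptidase. Ctsz measured 876, 838 and 902 CPM in control, 1968, 1854 and 2103 CPM in CM and 1417, 1531 and 1505 CPM in CM plus DTM. The 3 groups did not overlap for Ctsz, with CM highest and CM plus DTM between. Its log2 fold change was 1.18 (SE 0.14, adjusted p = 0.00294) in CM against control and 0.77 (SE 0.14, adjusted p = 0.0302) between CM plus DTM and control. The first call held in each of the 9 fits that left out 1 library, with an adjusted p of at most 0.0308 by edgeR. The second was lost without control 1, control 2, control 3, CM 2, CM 3 or CM plus DTM 3, up to an adjusted p of 0.166, with total count scaling (0.0967) and with the compared groups only (0.0662). Between CM plus DTM and CM the difference for Ctsz was -0.41 (SE 0.14, adjusted p = 0.103), past the threshold only by DESeq2 among the alternatives run.

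Ctsl measured 2177, 1485 and 1886 CPM in control, 2542, 5596 and 5521 CPM in CM and 2354, 3066 and 2891 CPM in CM plus DTM. CM 1 lay close to the highest control library, and CM 2 and CM 3 were the highest libraries of all. Its log2 fold change in CM against control was 1.30 (SE 0.31, adjusted p = 0.0434). The call was lost without any one of control 1, control 2, control 3, CM 2, CM 3, CM plus DTM 2 or CM plus DTM 3, up to an adjusted p of 0.183, with total count scaling (0.0650) and with the compared groups only (0.0517). With DTM added to CM the difference was -0.72 (SE 0.31, adjusted p = 0.164), and without CM 1 and CM plus DTM 1 it was -0.95 with an adjusted p of 0.0341.

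The most abundant protease transcript was Ctsb, for cathepsin B, at 14698, 11552 and 11982 CPM in control, 15839, 18822 and 19806 CPM in CM and 21346, 17164 and 16827 CPM in CM plus DTM. Both treated groups lay above control for Ctsb and overlapped each other. The log2 fold change was 0.51 (SE 0.22, adjusted p = 0.212) in CM against control and 0.02 (SE 0.21, adjusted p = 0.959) between CM plus DTM and CM, so neither passed the test. The 7 other proteases had log2 fold changes in CM against control from -0.22 for Tpp1, a tripeptidyl peptidase, to 1.17 for Ctss, the cathepsin that trims the invariant chain of MHC class II. Between them lay Ctsd, the main aspartic protease, at 0.73 (SE 0.22, adjusted p = 0.0947), Ctsa, which protects β-galactosidase and neuraminidase, at 0.55, Lgmn, the asparaginyl endopeptidase that processes cathepsins, at 0.46, the aminopeptidase Ctsh at 0.32 and the dipeptidyl peptidase Ctsc at 0.31. Over the 10 proteases the median was 0.53 in CM against control, -0.10 between CM plus DTM and CM and 0.51 between CM plus DTM and control.

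Of the 8 glycosidases Gla rose in CM. Gla encodes α-galactosidase A, which removes terminal galactose from glycolipids. It measured 134, 141 and 137 CPM in control, 246, 247 and 223 CPM in CM and 171, 183 and 176 CPM in CM plus DTM. All 3 groups were apart for Gla, with CM highest and CM plus DTM between. Gla gave a log2 fold change of 0.80 (SE 0.12, adjusted p = 0.00847) in CM against control, lost without control 2 (0.0603) and with total count scaling (0.0558). Between CM plus DTM and CM it was -0.43 (SE 0.12, adjusted p = 0.0724), with a 95% interval of -0.71 to -0.15, and between CM plus DTM and control 0.37 (SE 0.12, adjusted p = 0.128).

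Hexa, for the α subunit of β-hexosaminidase, was the most abundant glycosidase transcript at 845, 759.5 and 783 CPM in control, 814, 649.7 and 665 CPM in CM and 584, 749 and 704 CPM in CM plus DTM. Its groups overlapped in CM against control, with a log2 fold change of -0.17 (SE 0.16, adjusted p = 0.612) and a 95% interval of -0.53 to 0.20. Estimates above 0 in CM against control belonged to Gaa, the acid α-glucosidase that degrades glycogen, at 0.53, Glb1, the acid β-galactosidase, at 0.43, Neu1, the lysosomal sialidase, at 0.43, and Naglu, a heparan sulfate enzyme, at 0.37. Below 0 with Hexa were Gusb, the β-glucuronidase, at -0.29, and Man2b1, the acid α-mannosidase, at -0.40. None of these 6 passed the test. The glycosidase median was 0.40 in CM against control, -0.22 between CM plus DTM and CM and -0.05 between CM plus DTM and control.

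In the lipid class Psap rose in CM, with the largest fold change of the 42 genes. Psap encodes prosaposin, which is cut into the saposins that present glycolipids to their hydrolases. It measured 7745, 7876 and 7090.0 CPM in control, 19759, 24270.3 and 24501 CPM in CM and 7584, 17650.5 and 14655 CPM in CM plus DTM. Every CM library was above every control library, and CM plus DTM 1 lay within the control range while CM plus DTM 2 and 3 lay between control and CM. For Psap the log2 fold change was 1.59 (SE 0.31, adjusted p = 0.0194) in CM against control, and Psap alone went from 0.801, 0.908 and 0.808% of counts in control to 1.98, 2.31 and 2.31% in CM. This call was lost without any one of control 1, control 2, control 3, CM 2 or CM 3, up to an adjusted p of 0.0926, and held with total count scaling (0.0408). With DTM added to CM the difference was -0.78 (SE 0.30, adjusted p = 0.132), and without CM 1 and CM plus DTM 1 it was -0.65 with an adjusted p of 0.0466. The difference from control was 0.81 (SE 0.30, adjusted p = 0.152) in CM plus DTM.

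The other 7 genes of the class did not pass the test in any comparison. In CM against control their log2 fold changes were 0.98 for Npc2 and 0.28 for Npc1, which hand cholesterol out of the lysosome, 0.45 for Grn, the progranulin gene, 0.29 for the acid sphingomyelinase Smpd1, 0.23 for the acid ceramidase Asah1, 0.02 for the thioesterase Ppt1 and -0.56 for Lipa, the acid lipase for cholesteryl esters. Npc2 averaged 1016 ± 109 CPM (SD, n = 3) in control, 1998 ± 462 CPM in CM and 2072 ± 684 CPM in CM plus DTM, with adjusted p-values of 0.0693 and 0.0771 against control. Grn averaged 1275 ± 78.4 CPM (SD, n = 3), 1742 ± 38.8 CPM and 1143 ± 337 CPM in the same order. The median over the 8 genes was 0.29 in CM against control and -0.02 between CM plus DTM and CM.

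None of the 6 membrane protein genes passed the test, although all 6 estimates lay above 0 in CM against control (median 0.45). Lamp1, a main glycoprotein of the lysosomal membrane, measured 2113, 2049 and 2272 CPM in control, 2972, 3378 and 3656 CPM in CM and 3531, 3069 and 3082 CPM in CM plus DTM. Both treated groups were above control for Lamp1 in all libraries and overlapped each other. Lamp1 gave a log2 fold change of 0.64 (SE 0.16, adjusted p = 0.0575) in CM against control, -0.05 (SE 0.16, adjusted p = 0.881) between CM plus DTM and CM and 0.59 (SE 0.16, adjusted p = 0.0881) between CM plus DTM and control. Without CM 1 and CM plus DTM 1 Lamp1 passed against control in both treated groups, at 0.75 (adjusted p = 0.00355) in CM and 0.50 (adjusted p = 0.0327) in CM plus DTM. Lamp2, which also serves chaperone-mediated autophagy, stood at 1.06 (SE 0.29, adjusted p = 0.0666) in CM against control, the tetraspanin Cd63 at 0.48, the TRPML calcium channel Mcoln1 at 0.41, the macrophage glycoprotein Cd68 at 0.13, and Scarb2, the receptor that carries glucocerebrosidase to lysosomes, at 0.01 with a 95% interval of -0.31 to 0.33.

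In the proton pump 1 of 8 subunits rose in CM and a different one in CM plus DTM. Atp6v1b2 encodes the B2 subunit of the catalytic V1 part and was the most abundant of the 8. It measured 496, 448 and 397 CPM in control, 640.1, 803 and 752 CPM in CM and 617, 771 and 721 CPM in CM plus DTM. Both treated groups lay above control and overlapped each other. The log2 fold change was 0.71 (SE 0.17, adjusted p = 0.0403) in CM against control, -0.06 (SE 0.16, adjusted p = 0.853) between CM plus DTM and CM and 0.65 (SE 0.17, adjusted p = 0.0737) between CM plus DTM and control. The call in CM was lost without any one of control 1, control 2, control 3, CM 2, CM 3 or CM plus DTM 3, up to an adjusted p of 0.177, with total count scaling (0.125) and with no count filter (0.0563).

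Atp6v0d1 encodes the d1 subunit of the membrane V0 part. It measured 234, 234 and 231 CPM in control, 288, 302 and 321 CPM in CM and 353, 367 and 369 CPM in CM plus DTM. The 3 groups did not overlap and stood in the order control, CM, CM plus DTM. The log2 fold change was 0.38 (SE 0.12, adjusted p = 0.112) in CM against control, 0.26 (SE 0.12, adjusted p = 0.204) between CM plus DTM and CM and 0.64 (SE 0.12, adjusted p = 0.0348) between CM plus DTM and control. The call against control was lost without any one of control 1, control 2, control 3, CM 2, CM 3 or CM plus DTM 3, up to an adjusted p of 0.174, with total count scaling (0.141), with no count filter (0.0864) and with the compared groups only (0.0728).

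All 3 V0 subunits of the set, Atp6v0c, Atp6v0d1 and Atp6v0e, had every CM plus DTM library above every CM library with none called. Among all genes tested 16.7% lay wholly above and 17.8% wholly below in this comparison. Of 6 other V0 genes outside the 42, Tcirg1, Atp6v0a1, Atp6v0a2 and Atp6v0d2 had every CM plus DTM library below every CM library, Atp6v0b had every one above, and Atp6v0e2 was under 1 CPM in all 9 libraries, so that V0 genes lay on both sides. Tcirg1, for one, measured 489.9 to 715 CPM in CM and 347 to 383 CPM in CM plus DTM. Atp6v0c, the proteolipid of the rotor, measured 367, 329.7 and 443 CPM in control, 575, 545 and 577 CPM in CM and 1257, 614 and 674 CPM in CM plus DTM. Its log2 fold change between CM plus DTM and CM was 0.58 (SE 0.27, adjusted p = 0.187) and against control 1.16 (SE 0.27, adjusted p = 0.0580). Atp6v0e measured 207, 189 and 190.1 CPM in control, 258, 239 and 268 CPM in CM and 622, 296 and 352 CPM in CM plus DTM, with log2 fold changes of 0.73 (SE 0.25, adjusted p = 0.104) and 1.118 (SE 0.25, adjusted p = 0.0557) in the same comparisons. For both genes CM plus DTM 1 was the highest library. Among the other subunits between CM plus DTM and CM, Atp6v1a, the catalytic A subunit, stood at -0.61, Atp6v1c1 at -0.06, Atp6v1h at 0.32 and the accessory protein Atp6ap1 at -0.43, with no adjusted p under 0.05. The same 4 stood at 0.77, 0.42, 0.14 and 0.24 in CM against control. Atp6v0c and Atp6v0e are singled out here after their values were seen.

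Of the transcription factors Mitf rose in CM. It measured 21.7, 23.9 and 21.4 CPM in control, 59.2, 51.5 and 40.1 CPM in CM and 51.0, 27.4 and 30.8 CPM in CM plus DTM. Every CM and CM plus DTM library was above every control library, and the treated groups overlapped. Mitf gave a log2 fold change of 1.17 (SE 0.26, adjusted p = 0.0323) in CM against control, -0.47 (SE 0.25, adjusted p = 0.259) between CM plus DTM and CM and 0.70 (SE 0.26, adjusted p = 0.144) between CM plus DTM and control. The call was lost without any one of control 1, control 2, control 3, CM 1, CM 2, CM 3 or CM plus DTM 3, up to an adjusted p of 0.126, and held with total count scaling (0.0454). Tfeb measured 37.1, 31.7 and 30.5 CPM in control, 43.4, 31.4 and 33.8 CPM in CM and 2.16, 33.2 and 26.4 CPM in CM plus DTM. CM plus DTM 1 held 80 reads of Tfeb where the other 8 libraries held 1227 to 2199. Tfeb was not alone in this: outside the set, Ctns measured 0.703, 32.3 and 30.3 CPM in CM plus DTM, and Atg9a 0.757, 34.4 and 33.4 CPM. Others were highest in that library, such as Gabarap at 1247, 644 and 734 CPM. These were picked after their values were seen, and the cause was not tested. The log2 fold change of Tfeb in CM against control was 0.13 (SE 0.69, adjusted p = 0.941), with a 95% interval of -1.43 to 1.69.

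**Figure D3:**
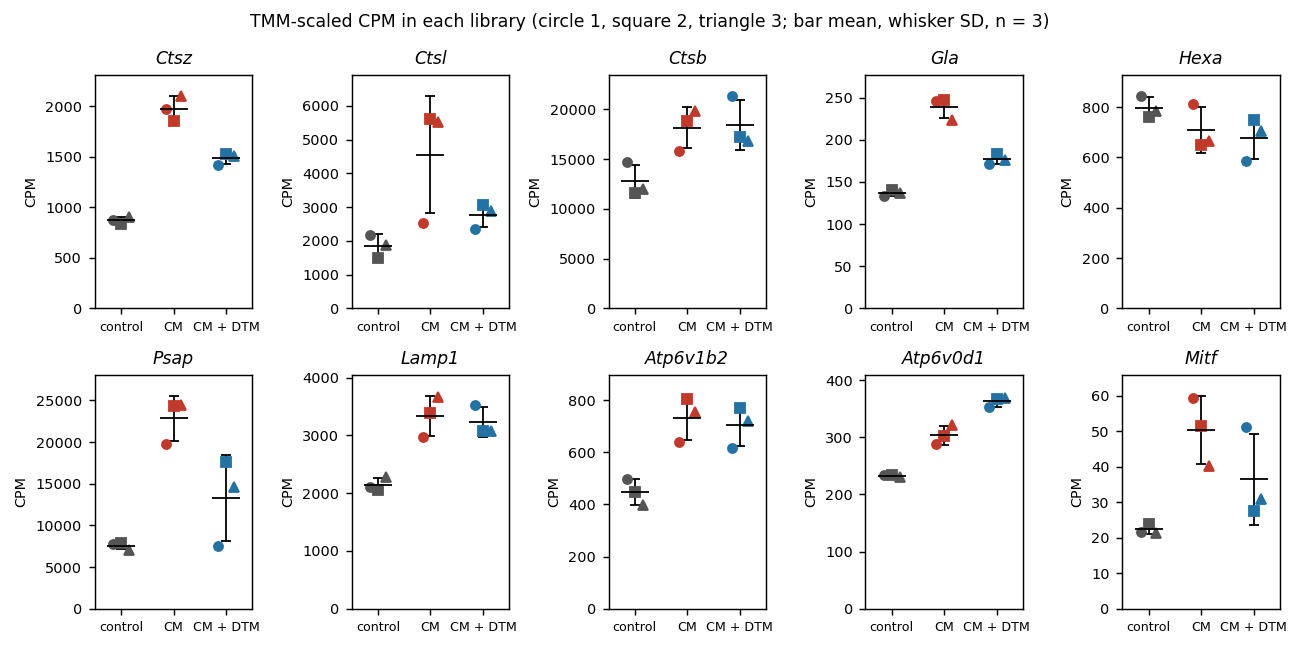
TMM-scaled CPM (y axis, from 0) of 10 of the genes given library by library, those called or most abundant in their class, in control, CM and CM plus DTM (x axis); circle, square and triangle are libraries 1, 2 and 3, the bar is the mean and the whisker the SD (n = 3). Ctsz and Gla show 3 separate groups with CM highest, Atp6v0d1 is lowest in control and highest in CM plus DTM, and the first libraries of CM (Ctsl) and of CM plus DTM (Psap) lie nearer to control than the others.

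Ranked by group means, 17 of the 42 genes stood in the order control, CM plus DTM, CM from lowest to highest, and 14 in the order control, CM, CM plus DTM. The second order included Ctsb, Ctsc, Ctsh, Ctss, Npc2, Cd63, Atp6v0c, Atp6v0d1 and Atp6v0e. CM plus DTM was lowest and CM highest for Gaa, Npc1, Grn, Mcoln1, Atp6ap1 and Tfeb. Control was highest for Tpp1, Hexa and Man2b1, with CM plus DTM lowest, and for Gusb and Lipa, with CM lowest. Only means are ranked, and no test stands behind an order. Orders were not counted over all genes, so these counts have no background to be read against.

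The 2 libraries that stood apart did so in individual lysosomal genes in both directions. In CM 1, 10 of the 42 genes were more than 1.5-fold from the mean of the other CM libraries, 3 above and 7 below, and in CM plus DTM 1 there were 13, 8 above and 5 below. CM plus DTM 2 had 9 and each of the other libraries 1 or 2. Ctsc measured 303, 1008 and 1029.9 CPM in CM and 1783, 970.1 and 1115 CPM in CM plus DTM, against 658, 597 and 637 CPM in control. Ctss measured 2174, 2039 and 1929 CPM in control, 3300.1, 5245 and 5292 CPM in CM and 7805, 3205 and 3791 CPM in CM plus DTM. For Ctss the highest library of all was CM plus DTM 1, and its log2 fold change between CM plus DTM and CM was 0.10 with all libraries and -0.65 without the 2 (adjusted p = 0.0404). Cd63 measured 1509, 671 and 777 CPM in CM plus DTM and Tpp1 126, 202 and 387 CPM. The same 2 libraries had the lowest and the highest neutrophil marker sums and the 2 highest mitochondrial shares. The part of either in these values was not tested. Genes in this paragraph were picked after their values were seen.

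**Figure D4:**
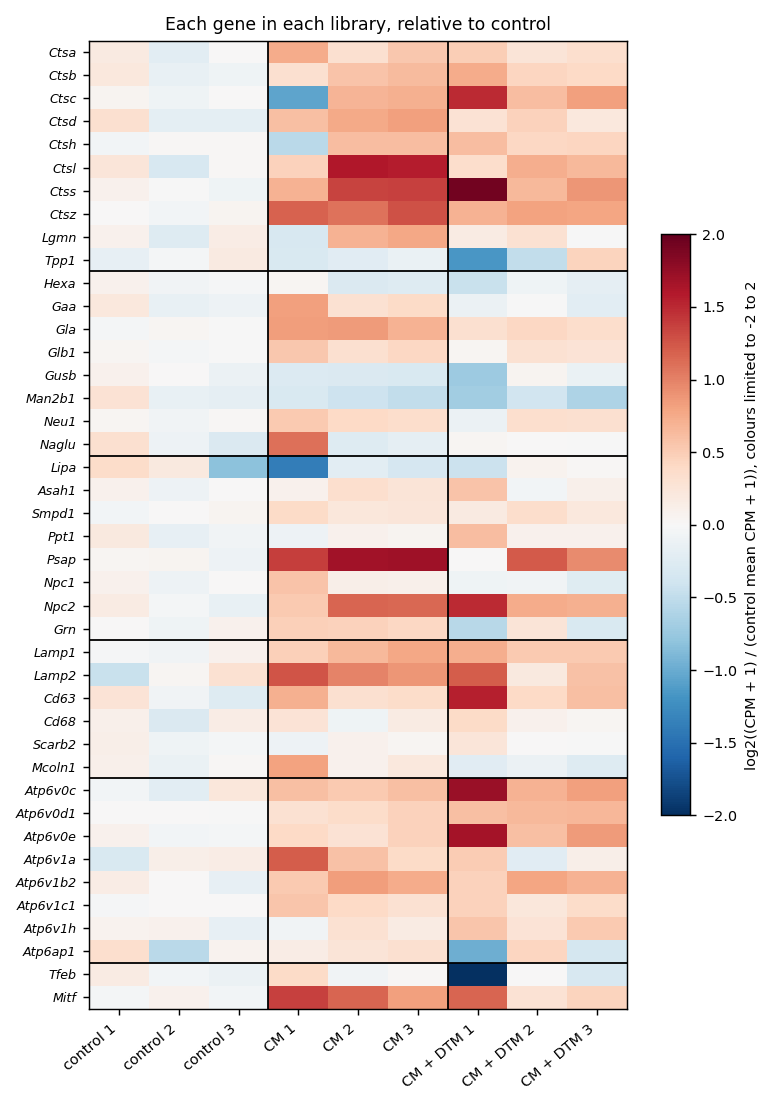
Log2 ratio of (CPM + 1) in each library to (mean control CPM + 1) for the 42 genes (rows, by class) in the 9 libraries (columns), red above and blue below control, with colours limited to -2 and 2. Psap, Ctsl, Ctss, Ctsz and Mitf are red across CM; CM 1 is blue for Ctsc and Lipa, and CM plus DTM 1 is beyond the blue limit for Tfeb and near control for Psap.

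Per length the transcripts of the set spanned a wide range. In control the highest CPM per kb of the longest protein-coding transcript was that of Ctsd, at 5380, followed by Psap at 2849, Ctsb at 2687, Ctss at 1511, Cd68 at 1402 and Lamp1 at 962. The lowest were Tfeb at 14.1 and Mitf at 4.58 CPM per kb. In CM the level of Psap was 8597 and that of Ctsd 8895 CPM per kb, while Mitf reached 10.3. Transcript lengths came from GENCODE vM21 and the isoform used in these cells was not measured. The order therefore depends on the transcript chosen. A shorter isoform would give a higher value, for instance for Ctsl, taken at 6168 bases.

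Members with and without the E-box letters in their window were set side by side without a test. The 13 with CACGTG had a median log2 fold change of 0.53 in CM against control, from 0.37 to 1.30, with 2 called (Ctsl and Gla). The 22 without had a median of 0.30, from -0.56 to 1.59, with 3 called (Ctsz, Mitf and Psap). Both counts are to be read against the 4.04% of all genes tested that were called higher. For GTCACGTG the medians were 0.46 in the 9 that hold it and 0.41 in the 26 that lack it.

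Beyond the 42, other genes of the lysosome, its sorting, its regulation and autophagy were read from the same fits. Of 130 genes listed 122 were tested, and in CM against control 13 rose and 2 fell (7 and 3 with total count scaling), with a median log2 fold change of 0.17; that is to be read against 4.04% and 1.57% of all genes. Of 12 other proton pump subunits 2 rose: Atp6v0d2, a V0 subunit of osteoclasts and some macrophages, from 25.2 ± 4.21 CPM (SD, n = 3) to 216 ± 97.2 CPM, and Tcirg1, the a3 subunit, with log2 fold changes of 3.10 (SE 0.31, adjusted p = 0.00146) and 1.22 (SE 0.17, adjusted p = 0.00535). Of 20 regulators 4 rose, namely Rragd, a Rag GTPase of the mTORC1 pathway, at 2.01 (SE 0.27, adjusted p = 0.00438), Fnip2, a folliculin partner, at 0.98 (SE 0.20, adjusted p = 0.0242), Gpnmb, a transmembrane glycoprotein of macrophages, at 1.23 (SE 0.26, adjusted p = 0.0278), and Tfec, a relative of Tfeb, at 2.48 (SE 0.55, adjusted p = 0.0324). Of 29 genes listed as other hydrolases and soluble lysosomal proteins 4 rose, among them Pld3 and Naaa at 1.35 and 1.33. In that list 1 fell, Hgsnat, a heparan sulfate acetyltransferase of the lysosomal membrane, at -1.88 (SE 0.30, edgeR adjusted p = 0.00956). Of 21 other membrane proteins the channel Mcoln2 and Sidt2 rose (1.33 and 0.70) and the transporter Abca2 fell, at -0.69 (SE 0.17, adjusted p = 0.0497). Of 18 autophagy genes Atg12 rose (0.63), and of 15 sorting genes and 7 cathepsin inhibitors 0 passed. Atp6v0d2, Tcirg1, Rragd and Hgsnat kept their calls in all 9 fits that left out 1 library, and the other 11 each lost theirs in at least 2, up to an adjusted p of 0.177 for Atg12. Between CM plus DTM and CM 0 of the 122 passed, 43 had an unadjusted p under 0.05, against 28.3% of all genes, and DESeq2 called 4 higher and 16 lower, against 10.1% and 9.09%. In CM plus DTM relative to control Atp6v0d2 rose, at 1.93 (SE 0.30, adjusted p = 0.0184). Abca2 fell, at -1.20 (SE 0.17, adjusted p = 0.0147), as did Rptor, a subunit of mTORC1, at -1.24 (SE 0.25, adjusted p = 0.0375), where 1.5% of all genes rose and 0.946% fell. Each of these 3 lost its call in at least 4 of the 9 fits, up to an adjusted p of 0.133 for Rptor. With total count scaling 1 rose and 4 fell. Without CM 1 and CM plus DTM 1 the counts were 23 higher and 9 lower in CM against control, 1 and 5 between CM plus DTM and CM, and 12 and 9 between CM plus DTM and control. In those fits 9.62% and 6.41%, 1.8% and 3.17%, and 4.07% and 4.32% of all genes were higher and lower in the same order.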

How the data were processed

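The deposited values were raw read counts per gene for 9 libraries. RNA was isolated with TRIzol, and a Hieff NGS mRNA kit and a DNBSEQ-T7 sequencer were used, per the labels' protocols. HISAT2 2.1.0, Trimmomatic 0.36, DESeq2 1.12.4, FastQC 0.11.2 and the builds GRCh38 (human) and mm39 are named with no role, per the submitters' processing notes. The counting program, annotation and strand setting are not given in the sources used here. Counts of genes with near-identical copies, overlapping neighbours or antisense partners are therefore uncertain.

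A single edgeR 4.0.16 model (R 4.3.3; filterByExpr, TMM, glmQLFit, glmQLFTest) was fitted to the 9 libraries, and p-values were adjusted by Benjamini and Hochberg over 15429 genes, with 0.05 as the threshold. The 3 groups share 1 estimate of the spread, so leaving out a library of one group also moves calls between the others. SE is the fold change divided by the square root of F, and 95% intervals are unadjusted. The scripts were tested on simulated data. Alternatives were DESeq2 1.42.0, limma-voom (limma 3.58.1), other scalings and count filters, edgeR with legacy = FALSE, library numbers as a replicate block, the compared groups only and each library left out in turn; the fit without CM 1 and CM plus DTM 1 was chosen after seeing the data.

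The members, classes, wider lists and marker lists were chosen with earlier results of these data known. Values per library are given for members called in any comparison or most abundant in their class, and up to 4 called genes of each wider list with a mean of at least 5 CPM are named; other members singled out were chosen after their values were seen. Some genes of the wider and marker lists are counted but not reported here by name. Of the 12 macrophage markers Itgam was left out because its symbol is on more than 1 row. Within groups, counts differed beyond sampling noise (chi-square per degree of freedom 27.6 to 470), and no library was counted as a duplicate. Transcript lengths were taken from GENCODE vM21 and promoter windows from RefSeq (GRCm38.p6), each for that purpose alone, since the table holds no coordinates.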

Additional observations from a re-analysis of the deposited data

How the results depend on the processing

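Rescaling by the relative log expression method, a filter of at least 1 CPM in 3 libraries, limma-voom and legacy = FALSE kept the number of lysosomal genes called within 1.5 times of the main number in all 3 comparisons. Counts of higher members in CM against control (main 6) were 3 with total count scaling, 15 with DESeq2, 10 with the compared groups only and 20 without CM 1 and CM plus DTM 1, a setting chosen after seeing the data; leaving out 1 library gave 1 to 16. In CM plus DTM against CM (main 0 and 0) lower members numbered 5 with DESeq2 and 3 without both libraries, and leaving out 1 library gave 0 to 1 higher and 0 to 1 lower. In CM plus DTM against control (main 2) higher members numbered 0 with total count scaling, 1 with no count filter, 11 with DESeq2 (and 1 lower), 0 with the compared groups only and 12 without both libraries; leaving out 1 library gave 0 to 7. The median log2 fold change of the members was 0.23 and 0.063 with total count scaling in the comparisons with control, -0.12 with no count filter and -0.19 without both libraries in CM plus DTM against CM, and with 1 library left out 0.36 to 0.46, -0.18 to -0.051 and 0.23 to 0.38 in the order of the comparisons. Ctss in CM plus DTM against CM changed sign without both libraries, to -0.65 (adjusted p = 0.0404). The library numbers are shared by the groups, and with the numbers as a replicate block 4, 0 and 0 members were called higher: Ctsl and Atp6v1b2 lost their calls in CM against control, and Ctsz and Atp6v0d1 theirs in CM plus DTM against control. Same-numbered libraries correlated at -0.04 to 0.30 in their deviations, above 0.1 in 4 of 9 pairs. Libraries of different groups and numbers correlated at -0.27 to 0.22, and 6 of 9 libraries correlated best with their own number. Whether same-numbered libraries share an origin is not stated in the labels and was not tested. The main fit takes no account of a shared origin. The cause of these shifts was not tested. The depth of at least 43084296 counts left no member near the filter.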
